A study of Mus musculus with 11 samples.

Results

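A chow low in fermentable fiber was compared with standard chow in 7 of the 11 RNA-seq libraries of the series, the 4 labelled NFF and the 3 labelled Control (numbered 2, 4 and 5). All 7 came from WT mice that received no further treatment. The cells were epithelial cells of the small intestine, sorted as live and EpCAM-positive and against CD45, CD31 and CD44. The other 4 libraries came from chow-fed mice colonized with segmented filamentous bacteria. They entered only the filter on low values and some alternative fits. Each fold change below compares the NFF with the Control libraries, which may differ in more than diet. The sources used here give neither strain, age or sex of the mice nor the length of feeding or the intestinal segment taken. Fermentable fiber cannot be told apart from any other difference in composition between the 2 diets. Nothing in the labels ties each library to its own animal, and each p-value is therefore a statement about the spread among these 7 libraries, which may be technical.

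Fermentable fibers are plant polysaccharides that mammalian enzymes do not cut and gut bacteria turn into short-chain fatty acids. Enterocytes, the absorptive cells that make up most of the epithelium, meet the diet directly: they digest sugars and peptides at the brush border, absorb lipid, and oxidize and conjugate foreign compounds with cytochromes P450, glutathione transferases and glucuronosyltransferases. Transcription of many of these enzymes is driven by the receptors PXR and CAR, which bind drugs, plant compounds and bile acids, and by NRF2, a sensor of reactive molecules. The same cells respond to interferon gamma from lymphocytes of the mucosa with immunity-related GTPases and the machinery that loads peptides on MHC molecules. Ileal enterocytes take up bile acids and release the hormone FGF15.

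The sorted cells carried the markers of their label. All 20 genes of an epithelial identity list were in the table, and Epcam stood at 489 to 615 RPKM in Control and 586 to 648 in NFF. Of 36 leukocyte markers only 6 were in the table, Ptprc (the gene of CD45) at 0.751 to 2.25 RPKM in Control and 1.4 to 2.48 in NFF. The summed level of those 6 was 45.8 to 71.1 RPKM in Control and 44 to 48.8 in NFF. Most of that sum came from Lyz2 (20.6 to 50.6 RPKM in Control, 18.7 to 29.4 in NFF) and Rac2 (9.66 to 18.9 and 11.3 to 24.5). Lyz2 is also on the list of Paneth cell genes described below, so the sum is not a measure of leukocytes alone. Of 23 endothelial and stromal markers 3 were in the table, with sums of 2.79 to 5.08 and 3.82 to 5.61 RPKM. Cd44, the gene of the marker sorted against, stayed below 1 RPKM in all 7 libraries. Read depth is unknown, because RPKM (reads scaled by gene length and by the mapped reads of the library) does not keep it, and the summed RPKM of a library ran from 258578 to 302661.

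Control 2 stood apart from the other 6 libraries before any comparison of diets. Its genes of the distal small intestine had a mean level of 5.79 on the log2(RPKM + 1) scale, against 7.04 in Control 4, 7.38 in Control 5 and 7.62 to 7.8 in NFF. The ileal bile acid binding protein gene Fabp6, named here after its values were seen, was at 146 RPKM in Control 2, 3380 in Control 4, 3770 in Control 5 and 3800 to 4090 in NFF. Proximal genes of Control 2 had a mean of 6.65, against 4.96 in Control 4, 5.3 in Control 5 and 4.95 to 5.33 in NFF. Control 4 stood apart in another respect, with cell cycle genes at a mean of 3.28 against 1.74 in Control 2, 2.43 in Control 5 and 1.59 to 2.1 in NFF. Results are therefore given with and without Control 2, and their dependence on Control 4 is stated where it matters.

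Across all genes, the difference between diets was small against the spread between libraries. Limma with Benjamini-Hochberg adjustment, on log2(RPKM + 1), called 1 of 10482 genes lower in NFF (0.00954%) and 0 higher (0%). At an unadjusted p under 0.05 there were 953 genes (9.09%), 510 of them higher (4.87%) and 443 lower (4.23%). Genes whose NFF libraries all lay above or all below the Control libraries numbered 561 (5.35%) and 463 (4.42%). These 2 percentages are the background against which the counts of non-overlapping genes below are to be read. The log2 difference was above 0 for 48.3% and below 0 for 51.7% of genes, with a median of -0.008. Without Control 2, limma called 8 genes higher (0.0763%) and 7 lower (0.0668%), and the non-overlapping genes numbered 1282 higher (12.2%) and 1799 lower (17.2%), which is the background for every such count given without Control 2. Leaving out any library can only keep or raise the number of non-overlapping genes, so such a rise is built into the count. In bulk samples fewer cells of a type and less RNA per cell cannot be told apart, here and in every comparison that follows.

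Enzymes of xenobiotic metabolism held some of the lowest log2 differences between NFF and Control. Cyp2c55, a cytochrome P450 that oxidizes arachidonic acid and is induced through PXR and CAR, was the gene that fell. It was at 59.6 RPKM in Control 2, 63.2 in Control 4 and 101 in Control 5, and at 14.1, 9.8, 16.7 and 12.7 RPKM in NFF 1 to 4. The lowest Control library was thus well above the highest NFF library. The means were 74.5 ± 22.8 RPKM (SD, n = 3) and 13.3 ± 2.87 (SD, n = 4), 5.6-fold lower in NFF, with a log2 difference of -2.38 ± 0.22 (SE; limma adjusted p = 0.032, 95% interval -2.89 to -1.88). Cyp2c55 lies on chromosome 19 (39006940 to 39042690, GRCm38). Without Control 2 the log2 difference was -2.52 (limma adjusted p = 0.019). Over 20 alternatives the log2 difference stayed between -2.68 and -2.15 while the adjusted p ran from 0.0014 to 0.79, and the call was lost in 9 of them, among them those without Control 4 (adjusted p = 0.089), NFF 1 (0.086), NFF 2 (0.12), NFF 3 (0.068) or NFF 4 (0.23).

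Cyp3a11, the main drug-oxidizing P450 of mouse enterocytes and a standard readout of PXR, was at 212, 75.8 and 124 RPKM in Control 2, 4 and 5 and at 19.4, 13.5, 19.3 and 22.7 in NFF 1 to 4. Its libraries did not overlap, and its log2 difference of -2.71 ± 0.32 was the lowest among the P450 genes but was not called (limma adjusted p = 0.096). It was called without Control 2 at -2.34 (limma adjusted p = 0.02), without Control 4 at -3.08 and with array weights, and the adjusted p over 20 alternatives ran from 0.0014 to 0.78. Cyp2b10, the standard target of CAR and named after its values were seen, was at 82.2 RPKM in Control 2, 10.9 and 10.6 in the other Control libraries and 1.37 to 4.78 in NFF. Its difference of -2.65 ± 0.65 moved to -1.71 without Control 2, and neither was called. Cyp2c66, Cyp2c65 and Cyp3a25, relatives in the same families and also named after the fact, had log2 differences of -1.32, -0.69 and -0.72, none called, with every NFF library below every Control library. Reads of such close paralogs can be shared in counting, so these values are not independent of each other.

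The P450 genes were divided in direction. Of 25 tested, 14 were above 0 and 11 below, 4 had non-overlapping higher and 6 non-overlapping lower libraries, and the median difference was 0.13, against -0.008 over all genes. Without Control 2, 11 were non-overlapping higher against 12.2% of all genes, 6 were non-overlapping lower against 17.2%, and the median was 0.24. Cyp2u1, a P450 that hydroxylates long-chain fatty acids, was at 6.24 to 7.96 RPKM in Control and at 12.2, 17.7, 18.1 and 17.6 in NFF 1 to 4. Its log2 difference of 1.11 ± 0.16 was not called. Of 19 genes of PXR, CAR and drug efflux, 1 was called lower (Cyp2c55) and 12 were below 0, with a median of -0.04 and 4 non-overlapping lower. Of these 4, Cyp2b10, Cyp2c55 and Cyp3a11 are on the P450 list too, and the remaining gene was Slco2b1, an organic anion transporter.

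**Figure D1:**
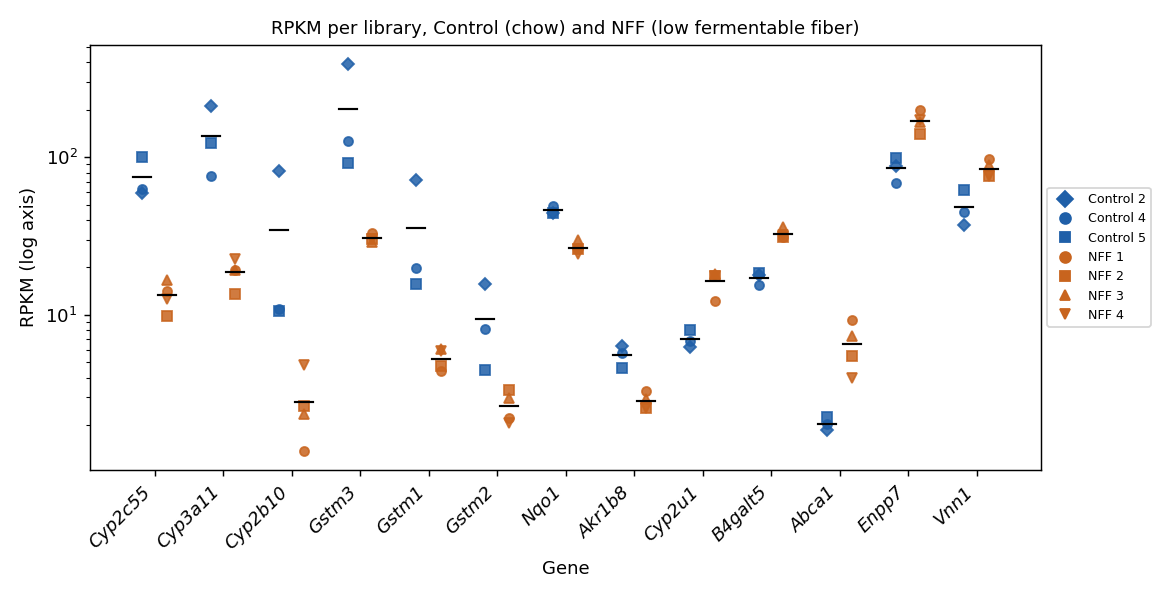
RPKM on a log axis of 13 genes in each library, Control in blue (diamond Control 2, circle Control 4, square Control 5) and NFF in orange, with black bars at the group means. Cyp2c55, Cyp3a11, Cyp2b10, Gstm3, Gstm1 and Gstm2 are lower in every NFF library than in any Control library, and Control 2 is the highest library for Cyp3a11, Cyp2b10, Gstm3, Gstm1 and Gstm2 but not for Cyp2c55, where it is the lowest Control at 59.6.

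The proximal promoter of Cyp3a11 is shown because half-sites of the kind that PXR and CAR bind as dimers can be read in it. In the 250 bases before its start (chr5:145879855-145880104, minus strand, RefSeq, GRCm38.p6) capitals mark AGGTCA at 162 to 157 bases upstream and TGAACT, the reverse of AGTTCA, at 142 to 137 bases upstream.
Cyp3a11: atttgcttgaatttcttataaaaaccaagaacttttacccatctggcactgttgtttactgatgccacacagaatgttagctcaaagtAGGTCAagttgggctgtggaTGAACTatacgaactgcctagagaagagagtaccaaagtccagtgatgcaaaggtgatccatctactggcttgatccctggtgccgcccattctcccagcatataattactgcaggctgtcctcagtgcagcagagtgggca
AGGTCA occurred on either strand in 11.2% and AGTTCA in 8.79% of the 8466 promoters of tested genes that RefSeq held, and in 2 and 4 of 21 P450 promoters. The matches describe the letters of this window and not a bound site, and the same window of Cyp2c55 held neither half-site.

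Glutathione transferases, which join glutathione to reactive compounds, had lower values in NFF mainly through the mu class. Gstm3 was at 391, 126 and 91.8 RPKM in Control 2, 4 and 5 and at 33.1, 30.1, 29.1 and 30.4 in NFF. Gstm1 was at 71.8, 19.9 and 15.7 RPKM in Control and 4.42 to 6.1 in NFF. Gstm3, like Cyp3a11, is also on the list of proximal genes, whose mean level was highest in Control 2. Gstm3 and Gstm1 were both highest in Control 2 and nearly even across NFF. Their log2 differences were -2.40 ± 0.42 and -2.24 ± 0.44, not called (limma adjusted p = 0.17 and 0.23), and -1.78 and -1.59 without Control 2, where both were called (limma adjusted p = 0.014 and 0.02, with ranges over 20 alternatives of 0.014 to 0.77 and 0.02 to 0.78). Gstm2 (-1.38) and Gstm5 (-0.66), from the same cluster on chromosome 3, and the alpha class gene Gsta3 (-0.76, named after its values were seen) were lower in every NFF library and not called. Of 23 transferases tested 19 were below 0, 7 had non-overlapping lower libraries and 0 non-overlapping higher, with a median of -0.40. Without Control 2 the median was -0.10 and the non-overlapping lower count 7, where the share over all genes was 17.2% in place of 4.42%.

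NRF2 targets include Gstm1 and several reductases. Nqo1, a quinone reductase and a standard NRF2 readout, was at 44.4, 49.1 and 44.4 RPKM in Control and 26.4, 26.2, 29.8 and 24.3 in NFF. The 3 Control libraries lay close together, Control 2 included, and none came near an NFF library. Its log2 difference was -0.76 ± 0.11 (limma adjusted p = 0.11) and -0.79 without Control 2, neither called. Akr1b8, an aldo-keto reductase of the gut (-0.77), and Me1, the malic enzyme that makes NADPH (-0.74), were lower in every NFF library and not called. Of 31 NRF2 targets, 24 were below 0 and 7 had non-overlapping lower libraries, with a median of -0.16 (-0.05 without Control 2). The letters TGACNNNGC, the core of the antioxidant response element, were in 6 of 27 NRF2 target promoters and in 12.1% of all promoters.

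Genes of glucuronidation, sulfation and other conjugation had 24 of 32 members below 0, 2 non-overlapping lower and 2 non-overlapping higher, with a median of -0.21 (-0.04 without Control 2). The non-overlapping lower genes were the glucuronosyltransferases Ugt2b35, at 13.5 to 19.6 RPKM in Control and 5.72 to 10.8 in NFF (-0.90), and Ugt1a7c (-0.55), neither called. Adh1, an alcohol dehydrogenase named after its values were seen, was at 328 RPKM in Control 2 and 61.8 to 121 in the other 6 libraries, and its difference turned from -0.29 to 0.47 without Control 2.

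Outside these families, the genes of lowest unadjusted p among those higher in NFF were led by B4galt5, a galactosyltransferase that makes lactosylceramide. It was at 17.8, 15.4 and 18.4 RPKM in Control and 31.3, 31.3, 36.1 and 32.2 in NFF, a log2 difference of 0.89 ± 0.11 (limma adjusted p = 0.096). It was called without Control 2 at 0.92 (limma adjusted p = 0.045), with a range of 0.013 to 1 over 20 alternatives. Enpp7, the intestinal alkaline sphingomyelinase that digests sphingomyelin in the gut lumen, was at 87.7, 68.4 and 99.6 RPKM in Control and 200, 141, 167 and 172 in NFF (0.99 ± 0.17). Degs1, which inserts the double bond of ceramide, went the other way, at 7.17, 4.96 and 5.68 RPKM in Control and 2.74 to 3.74 in NFF (-0.74 ± 0.14). Neither was called. The list of sphingolipid genes, which holds Enpp7 and Degs1 but not B4galt5, did not match these single genes. Of its 25 genes 19 were above 0, with 1 non-overlapping in each direction and a median of 0.10 (0 without Control 2).

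The transcription factor gene Maf was at 11.9 to 13.1 RPKM in Control and 21, 21.3, 21 and 25.9 in NFF (0.80 ± 0.11, not called). Naip5, the inflammasome receptor for bacterial flagellin, was at 30.2, 34.2 and 45.8 RPKM in Control and 68.9, 75.7, 62.9 and 76.7 in NFF (0.95 ± 0.16, not called). Every NFF library was above every Control library for both. The same held for Gngt2, a G protein gamma subunit (0.70), Nos1ap, an adaptor of nitric oxide synthase (0.86), the transporter-like gene Tmem144 (0.98), the small GTPase gene Arl4d (0.69), Igsf3 (0.55) and the olfactory receptor gene Olfr165 (0.94), with none called. On the lower side, Mif, a macrophage migration inhibitory cytokine, was at 36.8, 47.9 and 36.7 RPKM in Control and 18.9 to 23.2 in NFF (-0.92 ± 0.13). Rbp7, a cytosolic retinol-binding protein (-1.12), Bdh1, the ketone body dehydrogenase (-0.69), the phospholipase gene Plaat3 (-0.80) and Sfn, the 14-3-3 sigma gene (-0.59), were also lower in every NFF library and not called.

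Sugar-handling genes had mostly higher values in NFF, to a degree that depended on Control 2 and Control 4. Of 22 tested, 19 were above 0, with 3 non-overlapping higher, 0 non-overlapping lower and a median of 0.32. Without Control 2 all 22 were above 0, 15 had non-overlapping higher libraries against 12.2% of all genes, and the median was 0.71. Without Control 4 the median was 0.0. Sis, the sucrase-isomaltase of the brush border, was at 246, 132 and 213 RPKM in Control and 373, 344, 445 and 267 in NFF (0.88 ± 0.25). Mgam, the maltase-glucoamylase, was at 63.5 to 86.8 RPKM in Control and 157, 141, 167 and 88.1 in NFF (0.90 ± 0.23). Neither disaccharidase was called, and NFF 4 was the lowest NFF library for both. The glucose transporter gene Slc2a2 was at 33 RPKM in Control 2, 2.04 and 3.8 in Control 4 and 5 and 10.1 to 15.2 in NFF, so Control 2 lay above and the other Control libraries below all NFF libraries. Slc2a2 was called without Control 2 (1.73, limma adjusted p = 0.038, with a range of 0.038 to 1 over 20 alternatives) and stood at 0.68 with it and -0.01 without Control 4. The fructose transporter gene Slc2a5 differed in the same manner, from 0.37 with all libraries to 0.85 without Control 2, called in neither case.

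Brush border peptidases and amino acid transporters kept their median with and without Control 2, at 0.29 and 0.30. Of 29 tested, 25 were above 0, and 4 had non-overlapping higher and 0 non-overlapping lower libraries. Xpnpep2, a membrane aminopeptidase for peptides with proline, was at 23.2, 50.3 and 78.9 RPKM in Control and 141, 120, 121 and 99 in NFF, a log2 difference of 1.38 ± 0.35 and of 0.91 without Control 2. The prolidase gene Pepd (0.49) and the neutral amino acid transporter gene Slc43a2 (0.52) were also higher in every NFF library. Mep1a, the meprin metalloprotease, named after its values were seen, was at 15.7 RPKM in Control 2, 87.8 and 132 in Control 4 and 5 and 123 to 171 in NFF. None of the 4 was called.

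Lipid absorption genes divided almost evenly by direction with all 7 libraries and were mostly higher in NFF without Control 2. Abca1, the cholesterol exporter that loads HDL at the basolateral side, was at 1.85, 2.02 and 2.24 RPKM in Control and 9.26, 5.45, 7.31 and 3.96 in NFF, on average 3.19-fold higher. The Control libraries were nearly even and every NFF library exceeded them, with a log2 difference of 1.25 ± 0.23 (limma adjusted p = 0.20, not called). The sterol exporter gene Abcg5 (0.35) and the acyltransferase gene Agpat2 (0.48) were higher in every NFF library, not called. Of 32 lipid absorption genes, 18 were above 0, 4 had non-overlapping higher libraries and the median was 0.10 (-0.06 without Control 4). Without Control 2, 26 of 32 were above 0, with 12 non-overlapping higher against 12.2% of all genes, 1 non-overlapping lower and a median of 0.31. Cholesterol synthesis had 0 non-overlapping genes of 26 in either direction and a median of 0.08, which was -0.14 without Control 2, where 8 were non-overlapping lower against 17.2% of all genes. Of 14 fatty acid synthesis genes, 3 had non-overlapping lower libraries, among them the desaturase gene Fads1, at 1.28 to 2.12 RPKM in Control and 0.388 to 0.768 in NFF (-0.79), and the elongase gene Elovl6 (-0.43). Of the 7 libraries only those of Control reached 1 RPKM for Fads1, so it could pass the filter through the group where it was high. The list's median was 0.15, or -0.17 without Control 2.

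Fatty acid oxidation and PPAR alpha targets had 21 of 31 members above 0, 4 non-overlapping higher, 0 non-overlapping lower and a median of 0.04. Vnn1, the pantetheinase and a target of PPAR alpha, was at 37.2, 44.8 and 62.2 RPKM in Control and 96.9, 76.4, 89.9 and 75.7 in NFF (0.83 ± 0.18). Ppara itself (0.44) and the carnitine carrier gene Slc25a20 (0.37) were higher in every NFF library. None of the 3 was called.

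Genes of short-chain fatty acid transport and sensing, the products of fiber fermentation, showed no common direction. Of 17 tested, 8 were above 0 and 9 below, 0 had non-overlapping higher and 1 non-overlapping lower libraries, and the median was -0.06 (-0.13 without Control 2). The last was Hdac3, a histone deacetylase (-0.27). Ffar3, a receptor for propionate and butyrate, was at 4.63 to 8.76 RPKM in Control and 8.41 to 18.2 in NFF (0.58 ± 0.28), and Pparg, a nuclear receptor, differed by -0.37 ± 0.21. None was called. Of 17 retinoid genes 10 were above 0 and 1 was non-overlapping higher, with a median of 0.08. Without Control 2, 13 were above 0 and 10 non-overlapping higher against 12.2% of all genes, with a median of 0.26, and without Control 4 the median was 0.02. Rdh7, a retinol dehydrogenase, was at 108, 34.2 and 58.6 RPKM in Control and 106 to 132 in NFF, so that Control 2 alone reached the NFF range. Its difference was 1.01 ± 0.32, and 1.43 without Control 2, and neither was called.

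Distal genes and bile acid genes had higher values in NFF, but much of their size rested on Control 2. All 16 distal genes were above 0 and 9 had non-overlapping higher libraries, with a median of 0.75. Without Control 2, 15 of 16 were above 0, again 9 had non-overlapping higher libraries, against 12.2% of all genes, and the median was 0.33. Of 10 bile acid genes, 5 of them also on the distal list, 8 were above 0 with a median of 0.37 (0.20 without Control 2). Fgf15, the hormone gene that the bile acid receptor FXR switches on in the ileum, was at 0.05 RPKM in Control 2, 12 in Control 4, 27.9 in Control 5 and 106, 71.5, 87.6 and 91.2 in NFF. Every NFF library exceeded all Control libraries. The SD was 14 RPKM in Control and 14.3 in NFF, but on the log2 scale the Control libraries differed among themselves more than the NFF libraries did. The log2 difference was 3.60 ± 0.93 (limma adjusted p = 0.35) and 2.20 without Control 2 (limma adjusted p = 0.045, with a range of 0.045 to 1 over 20 alternatives).

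Other ileal genes differed in how far they followed Control 2. The bile acid uptake transporter gene Slc10a2 was at 0.673 RPKM in Control 2 and 22.4 and 39.6 in Control 4 and 5, against 29 to 42.2 in NFF, so its difference of 1.63 became 0.23 without Control 2. Fabp6 likewise went from 1.68 to 0.15. The basolateral bile acid exporter gene Slc51a went from 0.83 to 0.33, and its partner Slc51b from 0.49 to 0.16. Cubn, the ileal receptor for vitamin B12 bound to intrinsic factor, was at 2.45, 5.23 and 13.7 RPKM in Control and 20 to 25.5 in NFF (1.78 ± 0.40, and 1.29 without Control 2). Its partner Amn was at 97.7, 80.8 and 106 RPKM in Control and 141 to 167 in NFF (0.66 ± 0.13, and 0.69 without Control 2). For Amn, Control 2 lay between the other Control libraries. Guca2a, the peptide guanylin, was at 534, 1320 and 1240 RPKM in Control and 1660 to 2400 in NFF (1.02 ± 0.32), and the peptidase gene Naaladl1 differed by 0.91. None of these 8 genes was called, with Control 2 or without it, and Cubn was called without Control 5 (2.34, limma adjusted p = 0.04, with a range of 0.04 to 0.88 over 20 alternatives).

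**Figure D2:**
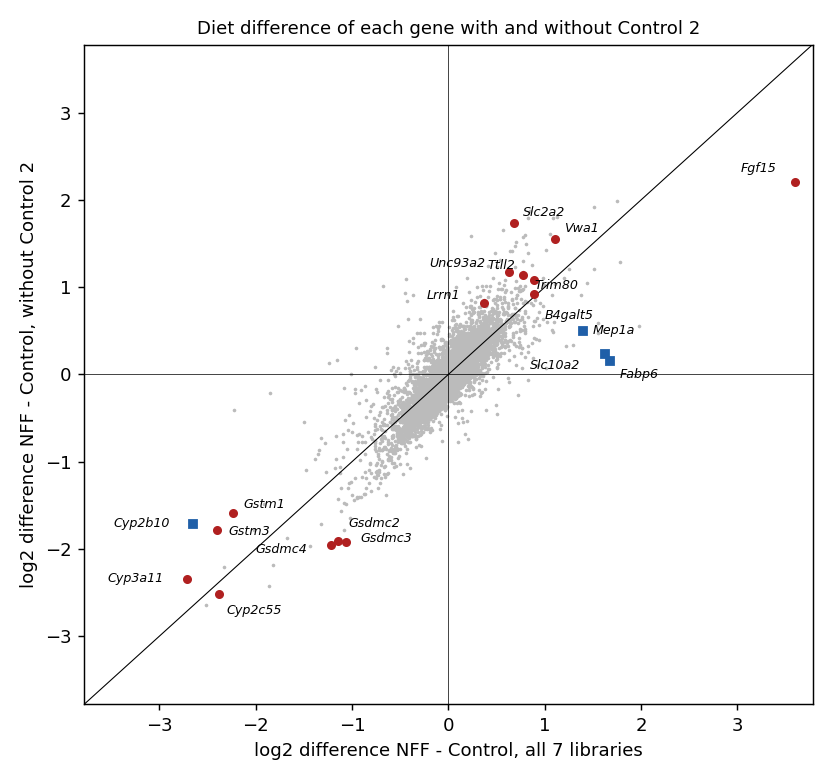
Log2 difference between NFF and Control of each of the 10482 genes with all 7 libraries (x axis) and without Control 2 (y axis), where the diagonal marks equal values. Red points are the 15 genes called without Control 2, and blue squares are Cyp2b10, Mep1a, Slc10a2 and Fabp6. Slc10a2 and Fabp6 move from 1.63 and 1.68 to 0.23 and 0.15, while Cyp2c55 and B4galt5 lie near the diagonal.

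Proximal genes turned with Control 2. Of 18 tested, 14 were below 0 with a median of -0.40, and without Control 2 there were 11 above 0 with a median of 0.16. Cyp3a11, Gstm3 and Adh1, described above with the xenobiotic enzymes, are also on this list. The 2 proximal genes called lower without Control 2 were Cyp3a11 and Gstm3. The descriptions of xenobiotic and proximal genes are therefore not independent of each other. Iron, folate and calcium genes had 13 of 17 below 0 and 3 non-overlapping lower, with a median of -0.13. The metallothionein genes Mt1 and Mt2, which bind zinc and copper, were split among the NFF libraries. Mt2 was at 53.5 to 76.9 RPKM in Control, 2.82 and 3.71 in NFF 1 and NFF 3, and 41.5 and 37 in NFF 2 and NFF 4. Mt1 was at 165 to 263 RPKM in Control, 44.3 and 52.7 in NFF 1 and NFF 3, and 164 and 161 in NFF 2 and NFF 4. Every NFF library was below every Control library for both, but the mean differences of -2.33 and -1.17, not called, came mostly from NFF 1 and NFF 3.

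Without Control 2, 3 gasdermin genes of a cluster on chromosome 15 were called lower. Gsdmc2 was at 25.9 RPKM in Control 2, 113 in Control 4, 145 in Control 5 and 24.8 to 41.3 in NFF, and Gsdmc3 and Gsdmc4 were likewise lowest in Control 2 among the Control libraries. Control 2 was thus at or below the NFF level for all 3. The log2 differences without Control 2 were -1.91, -1.92 and -1.96 (limma adjusted p = 0.02, 0.03 and 0.021), against -1.15, -1.06 and -1.22 with it, where the highest adjusted p over 20 alternatives was 1 for each. The 3 genes are paralogs that lie side by side, so reads may be shared and they are not 3 independent results. The other genes called without Control 2 and not yet described were higher in NFF: Ttll2, a tubulin-modifying ligase gene (1.08), the matrix gene Vwa1 (1.55), Trim80 (1.14), Unc93a2 (1.17) and Lrrn1 (0.82). For all 5 Control 2 was the highest Control library. It lay above every NFF library for Unc93a2 (15.6 RPKM against 10.3 to 12.9) and Lrrn1 (2.02 against 0.973 to 1.23). For Trim80 it lay within the NFF range (7.32 against 6.29 to 9.32). With Control 2 included the differences were 0.89, 1.11, 0.78, 0.63 and 0.37 in the same order, none called. The annotated spans of Ttll2 and Unc93a2 overlap on chromosome 17, so in an unstranded library they may share reads and are not 2 independent calls. The 15 genes called without Control 2 were named after that result was seen where they lie outside the rule for named genes.

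Interferon gamma response genes had lower values in NFF. Of 28 tested, 23 were below 0, and 10 had non-overlapping lower libraries against 1 non-overlapping higher, with a median of -0.32 and a list mean of 2.45 to 2.73 in Control and 2.1 to 2.23 in NFF. Without Control 2 the median was -0.23 and 12 had non-overlapping lower libraries, against 17.2% of all genes. None was called. Irgm2, an immunity-related GTPase that acts on the vacuoles of intracellular pathogens, was at 3.51, 2.52 and 1.91 RPKM in Control and 1.06, 0.59, 1.39 and 0.57 in NFF (-0.94 ± 0.20). Ifi47, another such GTPase, was at 3.36 to 4.15 RPKM in Control and 1.47 to 2.44 in NFF (-0.69 ± 0.15). Igtp was at 13.7, 4.66 and 4.31 RPKM in Control and 1.28 to 2.51 in NFF, so its difference of -1.34 became -0.87 without Control 2. Irgm1 differed by -0.45. Both Igtp and Irgm1 were named after their values were seen. Gbp2, a guanylate-binding protein, was at 2.3 to 3.95 RPKM in Control and 0.675 to 1.79 in NFF (-0.83 ± 0.20). Tgtp1, whose reads may be shared with its copy Tgtp2, was at 0.524 to 1.23 RPKM in Control and 0.228 to 0.352 in NFF (-0.53). Only Control 2 reached 1 RPKM for Tgtp1. Ido1, the tryptophan-degrading enzyme and a strongly interferon-induced gene, also named after the fact, was at 181, 62.2 and 188 RPKM in Control and 12.4, 40.7, 23.6 and 74 in NFF. NFF 4 overlapped Control 4 there, and the difference was -2.02 ± 0.59.

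**Figure D3:**
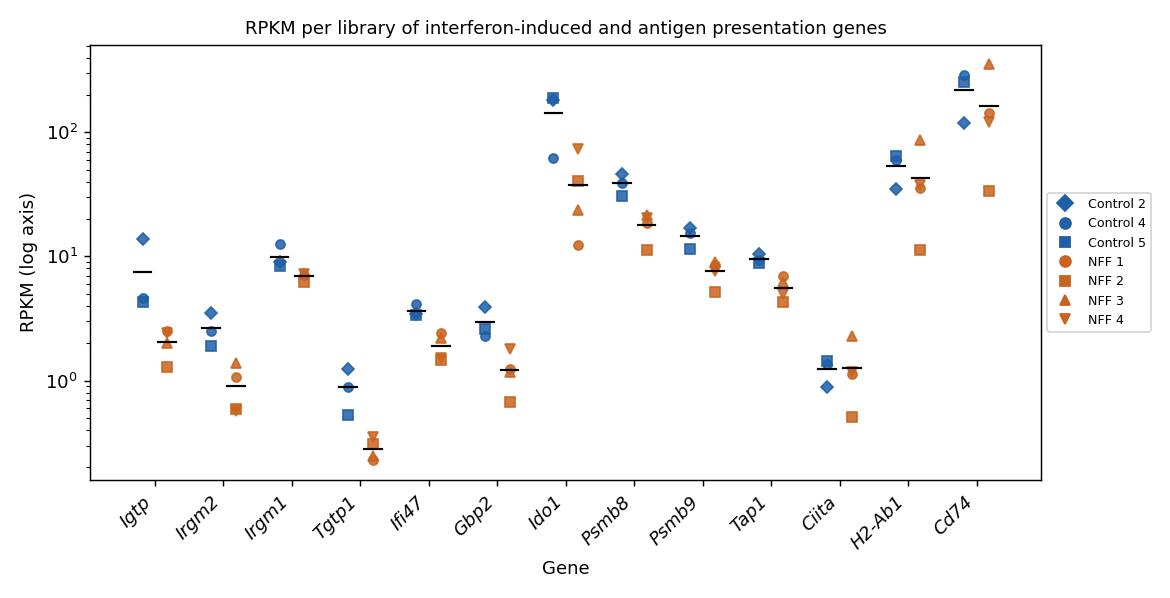
RPKM on a log axis of interferon-induced and antigen presentation genes in each library, with black bars at group means. From Igtp to Gbp2 and from Psmb8 to Tap1 every NFF library lies below every Control library, while for the class II genes at the right NFF 3 is the highest and NFF 2 the lowest of the 7 libraries.

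Promoters of these GTPases are shown because their lower values went together and because they share letters next to the start. Capitals mark the core of the interferon-stimulated response element (TTTC, then 2 bases of any kind, then TTTC again) and the gamma-activated site (TTCNNNGAA), each read on both strands, in the 120 bases before the start (RefSeq, GRCm38.p6). The windows are chr11:58199436-58199555 (plus strand) for Igtp, chr11:58214857-58214976 (plus) for Irgm2, chr11:48992247-48992366 (minus) for Tgtp1, chr11:48871421-48871540 (minus) for Irgm1 and chr3:142620543-142620662 (plus) for Gbp2.
Igtp: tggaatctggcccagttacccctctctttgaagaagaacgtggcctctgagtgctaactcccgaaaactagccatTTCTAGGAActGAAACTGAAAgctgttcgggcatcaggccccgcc
Irgm2: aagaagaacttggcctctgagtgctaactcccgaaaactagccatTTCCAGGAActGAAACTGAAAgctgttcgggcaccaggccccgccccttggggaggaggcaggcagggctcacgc
Tgtp1: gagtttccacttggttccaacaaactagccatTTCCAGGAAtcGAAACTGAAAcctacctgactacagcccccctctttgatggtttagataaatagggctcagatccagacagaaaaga
Irgm1: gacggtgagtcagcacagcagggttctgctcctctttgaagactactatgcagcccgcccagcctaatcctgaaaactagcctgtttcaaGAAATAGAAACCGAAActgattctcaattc
Gbp2: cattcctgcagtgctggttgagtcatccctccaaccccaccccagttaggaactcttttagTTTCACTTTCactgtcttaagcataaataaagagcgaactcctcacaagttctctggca
In Igtp, Irgm2 and Tgtp1 the gamma-activated site began 11 bases before the response element, and in Irgm1 2 response elements overlapped. Both elements within 11 bases of each other were found in 13 of 8466 promoters, Igtp, Irgm2, Tgtp1 and Tgtp2 among them. The response element was in 9 of 17 promoters of the list and in 2.6% of all, and the gamma-activated site in 7 of 17 and 5.81%. The list was built from known interferon targets, and a match says nothing about binding in these cells.

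Among MHC class I presentation genes, the immunoproteasome and the peptide transporter had the lowest unadjusted p. Psmb8, an inducible proteasome subunit, was at 46.3, 39.2 and 30.6 RPKM in Control and 18.7, 11.2, 21.4 and 20.5 in NFF (-1.09 ± 0.23). Psmb9, another inducible subunit, encoded on the other side of Tap1, was at 11.5 to 17 RPKM in Control and 5.2 to 9.07 in NFF (-0.87 ± 0.20). Tap1, a subunit of the transporter that carries peptides to class I molecules, was at 10.4, 9.41 and 8.88 RPKM in Control and 6.93, 4.29, 6.22 and 4.95 in NFF (-0.69 ± 0.15). Nlrc5, the transactivator of class I genes, was at 0.616 to 1.16 RPKM in Control and 0.384 to 0.48 in NFF (-0.34). Only Control 2 reached 1 RPKM for Nlrc5, so it passed the filter with libraries outside this comparison. For all 4 every NFF library was below every Control library and none was called. H2-T3, the thymus leukemia antigen of intestinal epithelium, was higher in every NFF library, at 31.7 to 37.3 RPKM against 27.2 to 31.3 (0.24, not called). Of 26 members 20 were below 0 and 6 had non-overlapping lower libraries, with a median of -0.20 (-0.07 without Control 2, where 9 were non-overlapping lower against 17.2% of all genes).

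Psmb9 and Tap1 start back to back on chromosome 17, so one short stretch serves both, and it is printed for that reason. It spans chr17:34187331-34187555 (plus strand, RefSeq, GRCm38.p6), with Psmb9 to the left and Tap1 to the right, and capitals mark CCAAT. The interferon-stimulated response element and the gamma-activated site were searched for in the same stretch, and neither was found. Psmb8 lies downstream of Tap1, and in the 120 bases before its start (chr17:34198075-34198194, plus strand) capitals mark a gamma-activated site at 97 to 89 bases upstream. The gamma-activated site was in 2 of 21 class I promoters and in 5.81% of all promoters, and CCAAT in 14 of 21 and in 37.3%. A match says nothing about binding in these cells.
Psmb9 and Tap1: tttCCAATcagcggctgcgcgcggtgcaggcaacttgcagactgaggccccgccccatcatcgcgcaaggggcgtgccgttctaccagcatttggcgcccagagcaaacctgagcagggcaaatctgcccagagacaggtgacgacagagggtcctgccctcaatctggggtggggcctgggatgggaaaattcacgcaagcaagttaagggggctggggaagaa
Psmb8: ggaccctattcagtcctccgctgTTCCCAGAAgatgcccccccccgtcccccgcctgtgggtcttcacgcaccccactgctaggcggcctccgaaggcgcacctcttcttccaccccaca

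MHC class II genes gave no separation of the diets, because the NFF libraries spanned the Control libraries on both sides. The list mean of 12 genes was 3.83 to 4.35 in Control and 3.02 in NFF 2 to 4.63 in NFF 3. Cd74, the invariant chain, was at 119, 287 and 255 RPKM in Control and 142, 33.8, 352 and 121 in NFF, and H2-Ab1 was likewise lowest in NFF 2 and highest in NFF 3. Ciita, the master activator of class II genes, differed by -0.02 ± 0.24. The median of -0.27 became -0.49 without Control 2 and -0.03 without NFF 2, with 0 non-overlapping genes in either direction.

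Antiviral interferon-stimulated genes had 25 of 30 members below 0, yet only 1 non-overlapping lower and a median of -0.21 that was -0.01 without Control 2. That member was Ifit2, which binds viral RNA, at 1 to 1.16 RPKM in Control and 0.299 to 0.577 in NFF (-0.57 ± 0.11, not called). Only the Control libraries of the 7 reached 1 RPKM for Ifit2, so it too could pass the filter through the group where it was high. Genes that respond to segmented filamentous bacteria and IL-22 went both ways, with 7 of 20 above 0, 2 non-overlapping in each direction and a median of -0.07. Reg3a, an antimicrobial lectin, was at 330, 227 and 271 RPKM in Control and 407, 414, 412 and 399 in NFF (0.58 ± 0.15). Duoxa2, the maturation factor of an epithelial NADPH oxidase, was at 26.1, 77.6 and 41.7 RPKM in Control and 19.9, 4.25, 20.1 and 10.5 in NFF (-1.82 ± 0.52). Nfkbiz, an inducible regulator of NF-kB, was at 13 to 20.9 RPKM in Control and 7.42 to 10.8 in NFF (-0.76 ± 0.19). None was called. A list of ligands and attractants of intraepithelial lymphocytes had 12 of 14 members above 0 with a median of 0.08. Its lowest member, Ephx1 (-0.23), encodes an epoxide hydrolase and is neither a ligand nor an attractant. The gut-homing chemokine gene Ccl25 was at 185 to 187 RPKM in Control and 207 to 226 in NFF (0.22, not called).

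Cell cycle genes were lower as a list, by an amount set by Control 4 and Control 2. All 41 tested were below 0, 4 had non-overlapping lower libraries, and the median was -0.65. It was -1.05 without Control 2, where 39 of 41 were non-overlapping lower against 17.2% of all genes, and -0.24 without Control 4. Ccnb2, a mitotic cyclin, was at 14.3, 37.9 and 18.2 RPKM in Control and 6.64, 10.7, 12.7 and 7.68 in NFF (-1.15 ± 0.33). Birc5, or survivin (-0.97), Mcm6 of the replicative helicase (-0.80) and Gins2 (-0.72) were also lower in every NFF library. Gins2 was low, at 0.902 to 2.35 RPKM in Control and 0.245 to 0.528 in NFF, and only Control 4 reached 1 RPKM. Mki67, the gene of the Ki-67 antigen, was at 1.86, 8.35 and 4.52 RPKM in Control and 1.52 to 4.26 in NFF (-0.58 ± 0.38), with libraries that overlapped. None was called. The stem cell gene Olfm4 was at 6.36, 30.3 and 17.6 RPKM in Control and 3.58, 1.27, 6.11 and 4.38 in NFF (-1.86 ± 0.51, not called), and 11 of 15 crypt genes were below 0 with a median of -0.21. CD44, a surface protein of crypt cells, was sorted against, and the low level of Cd44 itself was highest in Control 4 at 0.969 RPKM, against 0.457 to 0.8 in the other Control libraries and 0.333 to 0.646 in NFF. The part of remaining crypt cells in these results was not tested.

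Promoters of 3 cell cycle genes are printed because CCAAT boxes recur in them. Capitals mark CCAAT or its reverse ATTGG in the 250 bases before the start (RefSeq, GRCm38.p6, minus strand), at chr11:99024190-99024439 for Top2a, chr10:69352913-69353162 for Cdk1 and chr9:70421555-70421804 for Ccnb2.
Top2a: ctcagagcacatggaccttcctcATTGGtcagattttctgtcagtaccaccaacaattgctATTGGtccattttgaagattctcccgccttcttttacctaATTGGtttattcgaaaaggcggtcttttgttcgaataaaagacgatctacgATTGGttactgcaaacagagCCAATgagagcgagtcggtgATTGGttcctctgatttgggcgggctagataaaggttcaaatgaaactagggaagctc
Cdk1: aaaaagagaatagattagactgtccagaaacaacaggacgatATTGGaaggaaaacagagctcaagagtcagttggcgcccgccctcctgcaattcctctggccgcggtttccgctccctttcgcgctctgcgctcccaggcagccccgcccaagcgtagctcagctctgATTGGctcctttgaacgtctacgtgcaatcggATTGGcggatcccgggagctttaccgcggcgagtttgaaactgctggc
Ccnb2: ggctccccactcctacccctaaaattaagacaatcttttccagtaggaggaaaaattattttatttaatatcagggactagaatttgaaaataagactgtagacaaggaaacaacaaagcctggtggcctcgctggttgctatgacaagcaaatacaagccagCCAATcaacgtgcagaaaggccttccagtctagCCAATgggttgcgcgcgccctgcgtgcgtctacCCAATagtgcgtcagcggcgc
Top2a, the DNA topoisomerase of dividing cells, held 6 boxes, and Cdk1, the mitotic kinase, and Ccnb2 held 3 each. At least 3 were found in 9 of 33 promoters of the list and in 5.16% of all promoters, and at least 1 in 27 of 33 and in 37.3%. Top2a and Cdk1, chosen after their values were seen, differed by -0.74 and -0.72, neither called.

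Genes of oxidative phosphorylation were shifted together by a small amount. Of 71 tested 70 were below 0, 2 had non-overlapping lower libraries and the median was -0.19, or -0.08 without Control 2 and -0.30 without Control 5. Ndufs5, a complex I subunit, was at 29 to 42.2 RPKM in Control and 22.8 to 28.8 in NFF (-0.46), and Ndufv2 differed by -0.28, neither called. Genes of the integrated stress response and amino acid deprivation had 13 of 16 below 0 and a median of -0.34 (-0.16 without Control 2). Shmt2, the mitochondrial serine hydroxymethyltransferase, was at 3.31 to 6.42 RPKM in Control and 1.83 to 2.84 in NFF (-0.72), and Asns, asparagine synthetase, differed by -0.67 with overlapping libraries, neither called.

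**Figure D4:**
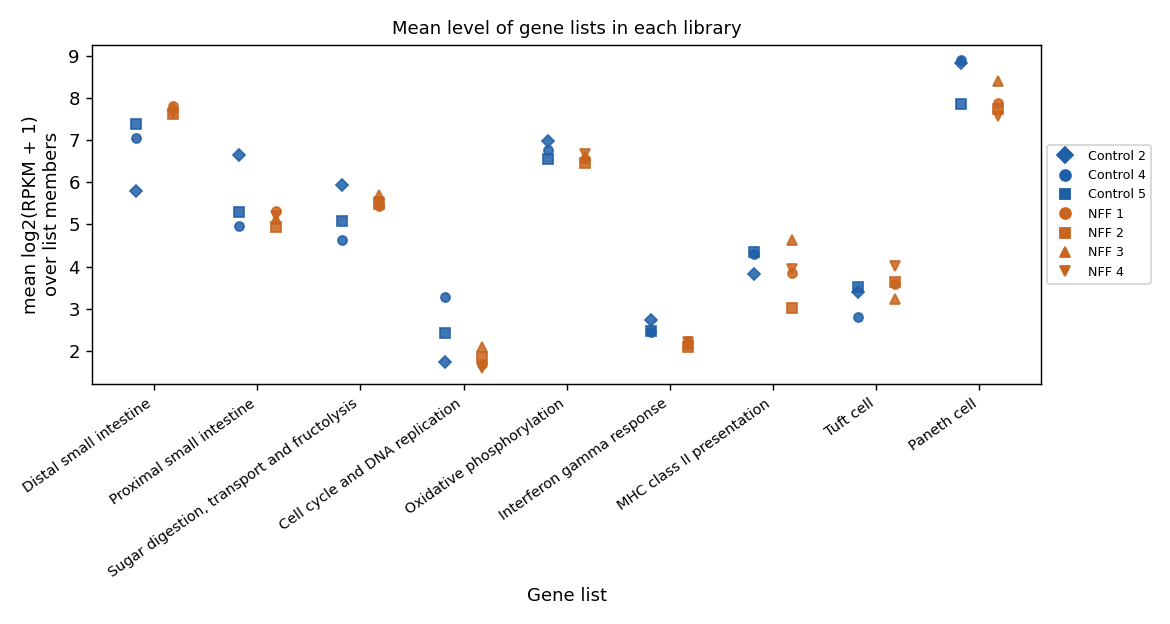
Mean log2(RPKM + 1) over the members of 9 gene lists in each library, Control in blue and NFF in orange. Control 2 (diamond) is lowest for distal genes at 5.79 and highest for proximal genes at 6.65, Control 4 (circle) is highest for cell cycle genes at 3.28, and NFF 2 and NFF 3 bound the class II list.

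Secretory and chemosensory lineages differed in direction, and with all 7 libraries few of their genes separated the diets. All 23 tuft cell markers were above 0, with 0 non-overlapping and a median of 0.33 (0.44 without Control 2, 0.13 without Control 4). Gnat3, the taste G protein, was at 3.91, 8.77 and 18.6 RPKM in Control and 23.8, 19.3, 14.1 and 24.5 in NFF, and NFF 3 was the lowest NFF library for Gnat3, for the channel gene Trpm5 (0.76) and for the kinase gene Dclk1 (0.64). All 23 Paneth cell genes were below 0, with 0 non-overlapping and a median of -0.63 (-0.41 without Control 2). The antimicrobial ribonuclease gene Ang4 was at 902 to 1630 RPKM in Control and 506, 580, 1070 and 642 in NFF (-0.95). Goblet cell genes had 13 of 21 above 0 and a median of 0.04, which ran from -0.30 without NFF 4 to 0.33 without NFF 1. Their mucus protein gene Fcgbp was at 570 to 1110 RPKM in Control, 519 and 612 in NFF 1 and NFF 3, and 1550 and 1520 in NFF 2 and NFF 4. Enteroendocrine genes had 16 of 21 above 0, 0 non-overlapping and a median of 0.27. Without Control 2, 12 of 21 were non-overlapping higher against 12.2% of all genes and the median was 0.67, but it was 0.04 without Control 4, 0.01 without Control 5 and 0.05 without NFF 4. Gcg, the proglucagon gene, was at 75.7, 104 and 91.8 RPKM in Control and 0.402, 111, 44 and 7.93 in NFF, so that the NFF libraries spread far wider than the Control libraries. None of these genes was called.

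Genes of enterocyte identity and of junctions stayed close between the diets. The epithelial list had a median of 0.06 (0.02 without Control 2), and Vil1, the brush border villin, was at 323 to 503 RPKM in Control and 448 to 584 in NFF (0.32). Tight junction and adhesion genes had 20 of 27 above 0 and a median of 0.10 (-0.03 without Control 2). The intermicrovillar protocadherin gene Cdhr5 was higher in every NFF library, at 397 to 464 RPKM against 301 to 375 (0.31, not called).

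**Figure D5:**
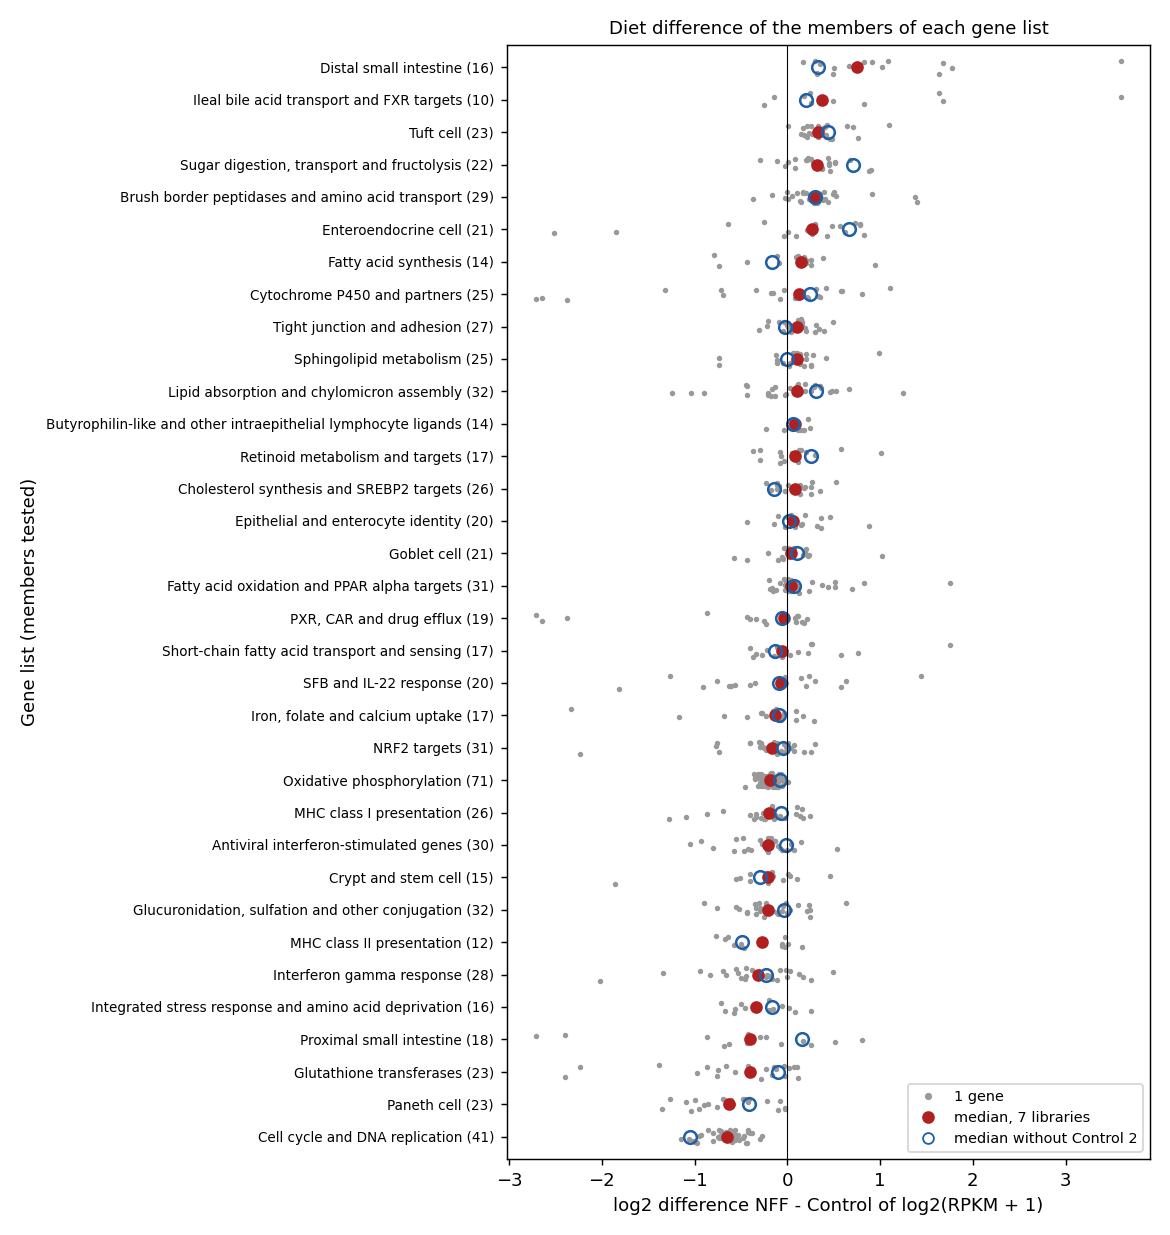
Log2 difference between NFF and Control of each member (grey) of the gene lists, with the number tested in parentheses, the median over 7 libraries (red) and the median without Control 2 (open blue circle). Proximal genes change side without Control 2, from -0.40 to 0.16, sugar genes move from 0.32 to 0.71 and cell cycle genes from -0.65 to -1.05.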

How the data were processed

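Per the file headers, the values that the authors deposited are RPKM (reads scaled by gene length and by the mapped reads of the library), for 11366 genes in 11 libraries. Per the labels' protocols, RNA of sorted cells was amplified with SMART-seq v4, which is unstranded and adds no molecular identifiers, and fragmented with NexteraXT, so overlapping genes may share reads. The submitters' processing notes name STAR and mm10, without versions, and the annotation used is not given in these sources. Low values formed no steps of whole reads, so no count test was possible and depth is unknown. Of the gene identifiers 11360 matched RefSeq, and 15 symbols stored as dates were restored to gene names.

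Groups came from the titles and the diet label. The 10482 genes at RPKM 1 or more in at least 3 of 11 libraries were tested on log2(RPKM + 1), a scale that understates changes of low genes, with limma 3.58.1 in R 4.3.3 (7 libraries, moderated with an intensity trend, residual df 5, no covariate), and called at a Benjamini-Hochberg adjusted p under 0.05 over all of them. Tested on simulated data with 10482 genes, this fit recovered 80% of log2 changes of 1 and 91% of 2. The simulated noise was drawn for each gene separately, with no shift of a whole library like that of Control 2. Changes were planted only in genes above a set mean level. The 2 shares therefore do not give the power of the fit in the real libraries. The comparison and the 41 gene lists were chosen with earlier results of these data known, and 34 lists are described by counts and medians. The rule for named genes took all called genes, the genes of lowest p up to 12 in each direction with a mean RPKM of at least 3, up to 4 of each list, and Epcam, Ptprc, Cd44, Ciita, Cd74, H2-Ab1, Fgf15, Cyp3a11, Gstm1, Nqo1 and Mki67. Other genes were named after their values were seen: Cyp2b10, Cyp2c65, Cyp2c66, Cyp3a25, Slco2b1, Gsta3, Adh1, Slc2a5, Mep1a, Fabp6, Igtp, Irgm1, Ido1, Top2a, Cdk1 and those called only without Control 2. Of the genes the rule took, 2 are not reported here. Alternatives changed the pseudocount, filter, scaling, variance model, weights, libraries fitted and replicate block, and left out each of 7 libraries. Promoters are the 250 bases before the first listed start in RefSeq, GRCm38.p6, matched for 8466 tested genes. The windows of Cyp2c55 and Top2a reach past another annotated start.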

Additional observations from a re-analysis of the deposited data

Results flagged for a closer look

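Of 197 genes or lists checked over the 4 NFF libraries, 5 had a library farther from the rest than Dixon's 95% critical value allows, and chance gives about 1 such group in 20. Maf was at 25.9 RPKM in NFF 4 against 21 to 21.3 in the other NFF libraries, all above Control. Cyp2u1 was at 12.2 RPKM in NFF 1 against 17.6 to 18.1. The GTPase gene Irgm1 was at 6.22 RPKM in NFF 2 against 7.1 to 7.25, all below Control. Both enteroendocrine genes came from NFF 4, where the granin-like gene Pcsk1n was at 17.1 RPKM against 4 to 5.93 and the transcription factor gene Rfx6 at 1.99 against 0.974 to 1.03. The 3 Control libraries are too few for this check.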

How the results depend on the processing

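The 1 gene called lower, Cyp2c55, was not called with quantile normalization (-2.35, limma adjusted p = 0.075), in the fit of all 11 libraries (-2.38, adjusted p = 0.52), with the replicate block (-2.36, adjusted p = 0.16) or with both (-2.38, adjusted p = 0.79), and each of these 4 called 0 genes lower. Array weights, which weighted Control 2 by 0.265 and Control 5 by 3.07, called 26 genes higher and 24 lower, and 10 of these 50 were among the 15 called without Control 2. Leaving out 1 library at a time gave 0 to 8 genes called higher, 0 to 7 lower, 649 to 1282 non-overlapping higher and 592 to 1799 non-overlapping lower, with the highest counts without Control 2. The non-overlapping counts can only stay or rise when a library is left out, from 561 higher and 463 lower with all 7. Without Control 5, 2 genes were called higher (Cubn and Sgk1) and 2 lower (Cyp2c55 and E230016K23Rik), the last named after its value was seen, as was Sgk1. The numbers in the titles of Control and NFF share only 2 and 4. Deviations of same-numbered libraries correlated at -0.17 and -0.28, and those of differently numbered libraries at -0.28 to 0.4. With only 2 such pairs the check cannot decide whether the number marks a pairing.

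Under the alternatives, 656 list medians moved by less than the spread of the list level between libraries and 24 by more. The 656 include alternatives that cannot move a median: those of the variance model and the unblocked fit of all 11 libraries. The spread itself includes Control 2. The proximal median, from -0.40 to 0.16 without Control 2, thus counts among the 656, because its spread was 0.58. The interferon gamma median was -0.46 with a pseudocount of 0.1, -0.19 with 3, -0.45 with a filter of RPKM 3 and -0.44 with the replicate block over 11 libraries. Array weights gave medians of -0.06 for NRF2 targets, -0.18 for cholesterol synthesis, 0.01 for sphingolipids, -0.13 for the stress response and 0.02 for Paneth cells. The replicate block gave 0.71 for tuft, 0.72 for goblet, -1.24 for Paneth and 0.19 for epithelial genes, and over 11 libraries 0.16 for peptidases, 0.02 for short-chain fatty acid genes, -1.87 for Paneth and 0.18 for epithelial genes. Leaving out 1 library gave medians of -0.21 to -0.04 for conjugation, -0.20 to -0.05 for NRF2 targets, -0.17 to 0.29 for fatty acid synthesis, 0 to 0.18 for sphingolipids and -0.13 to 0.03 for short-chain fatty acid genes.

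Several single genes changed sign. Ciita was at 0 with a pseudocount of 3, and array weights gave 0.03 for Ccl9, -0.34 for Fcgbp, -0.11 for Ptprc and 0.12 for Adh1, and the replicate block over 11 libraries -0.03 for Slc2a5. Leaving out 1 library at a time gave -0.40 to 0.08 for Ephx1, with the sign turned without Control 2, and -0.72 to 0.47 for Adh1, turned without Control 2. It gave -0.01 to 1.73 for Slc2a2, turned without Control 4, and -0.22 to 0.16 for Ciita, turned without Control 4 (0.03), Control 5 (0.05) or NFF 2. It gave -0.06 to 0.48 for Fcgbp, turned without Control 4, NFF 2 (-0.05) or NFF 4 (-0.04). The causes were not tested.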

Other observations

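NFF 1 and NFF 3 stood together against NFF 2 and NFF 4 for several abundant genes named above. Mt2 was at 2.82 and 3.71 RPKM in the first pair and at 41.5 and 37 in the second, Mt1 at 44.3 and 52.7 against 164 and 161, and Fcgbp at 519 and 612 against 1550 and 1520. The pairs were noticed in these values and were not tested.

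Of the 745 members tested of the 34 lists described, 94 (12.6%) had libraries that did not overlap between the diets, against 9.77% of all genes tested. The immediate early genes, a list of fast-responding transcription factors and regulators, were below 0 in 15 of 20 cases, with a median of -0.12, and above 0 in 16 of 20 without Control 2, with a median of 0.15. Circadian clock genes had a median of 0.16 with 0 non-overlapping members of 14, and genes of the unfolded protein response had a median of -0.03 with 0 of 22. Genes of the aryl hydrocarbon receptor axis had 5 of 6 below 0 and a median of -0.15, and villus tip genes a median of -0.16 that was 0.16 without Control 2.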
